A study of Mus musculus with 34 samples.

Results

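RNA from 3T3-L1 cells with a combined knockdown of 3 histone demethylases was compared with RNA from control cells at day 2 of adipocyte differentiation. 3T3-L1 is an established mouse preadipocyte line that becomes fat-storing cells when given a hormone mixture. The shKdm5ABC cells carried lentiviral hairpin RNAs against Kdm5a, Kdm5b and Kdm5c, and the control cells carried the lentiviral construct shLuc. Both groups were exposed to virus and polybrene for 24 hours, 4 days before induction, and from day 0 both were given fetal bovine serum with insulin, dexamethasone and the phosphodiesterase inhibitor 3-isobutyl-1-methylxanthine. The comparison rests on 4 of the 34 samples of the series, 2 libraries per group, numbered experiment 1 and experiment 2 in both groups. It covers 13534 of the 17515 RefSeq transcript rows of the deposited RNA table, those with a log2 value of at least 1 in at least 2 of the 12 RNA libraries, and 3981 rows were not tested. An RNA sample of cells without virus was not analysed here, so effects shared by both viruses cannot be seen. The labels do not say whether the experiments were separate cultures, and the p-values then measure only the spread between these samples.

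KDM5A, KDM5B and KDM5C remove methyl groups from lysine 4 of histone H3, a mark found in its trimethyl form (H3K4me3) at the promoters of active genes. They are known both as repressors that erase this mark and as regulators of cell cycle genes controlled by E2F factors and retinoblastoma proteins. After induction 3T3-L1 cells re-enter the cell cycle for a short time, known as mitotic clonal expansion, before the regulators C/EBP alpha and PPAR gamma turn on the genes for lipid storage. Day 2 falls in this early phase.

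RNA levels were deposited on the log2 scale, as normalized tags per kb, so levels can be set side by side between genes and a difference of 1 is a 2-fold change. A row was called changed at a Benjamini-Hochberg adjusted p under 0.05 in limma, fitted over all 12 RNA libraries. The files hold no RNA read counts, so the depth is unknown. The spread over libraries shrank at low levels, with a median range over the 12 libraries of 0.239 for rows below a mean of -2, against 1.793 for rows at 2 to 4. Whether changes of weakly expressed genes are understated was not tested. The 4 libraries at day 2 each correlated best with the other library of their own group. Same-numbered libraries deviated together (correlations of 0.381 to 0.657 over 15 pairs of groups). The fit behind the calls, SEs and adjusted p-values nevertheless left this pairing out, unless the block is named. Most counts are therefore also given with the experiment number as a block. For single values, an exact permutation test with 2 libraries on each side cannot give a 2-sided p under 0.333. Several columns of the H3K4me3 ChIP table go against their labels, with the values given at the end, and no result on genes rests on them.

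The hairpin targets were all lower in the knockdown. Kdm5c measured 7.17 and 6.91 in shKdm5ABC libraries, against 8.29 and 8.49 in shLuc libraries. Kdm5a measured 6.97 and 6.77 in shKdm5ABC, against 7.73 and 7.82 in shLuc. Kdm5b measured 6.97 and 6.89 in shKdm5ABC, against 7.57 and 7.58 in shLuc. The groups did not overlap for any of the 3 genes, and transcript was left in each case, at 39.2% of the shLuc level for Kdm5c, 53.4% for Kdm5a and 63.9% for Kdm5b. The fitted changes were -1.35 for Kdm5c (SE 0.18, adjusted p 0.0029), -0.90 for Kdm5a (SE 0.13, adjusted p 0.00424) and -0.65 for Kdm5b (SE 0.10, adjusted p 0.00664). Kdm5d has no row in the table. Among the other writers and erasers of H3K4 methylation and their partners, 2 of 24 rose and 0 fell: the methyltransferase gene Kmt2c by 0.66 (SE 0.13, adjusted p 0.0164) and Kmt2e, a relative of that family, by 0.52 (SE 0.14, adjusted p 0.0482), where the block gave 3 that rose and 2 that fell.

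Of the 13534 rows, 1218 were called (9.00%), 766 of them higher in shKdm5ABC (5.66%) and 452 lower (3.34%). The shares of 5.66% and 3.34% are the background for the counts without the block in each gene list below. List counts given with the block have a background of 13.9% of rows that rose and 14.2% that fell. A list near the matching share shows no excess of calls. Among called rows, those that rose changed by more than those that fell and were expressed at a lower level. Over all rows tested the quartiles of the change were -0.224 and 0.260, so the difference in size is one between called rows. The median change of rows that rose was 1.04 in size, with 414 at 1 or more and 48 at 2 or more. For rows that fell it was 0.689, with 72 at 1 or more in size and 1 at 2 or more. The median level was 6.02 for rows that rose and 7.97 for rows that fell. All 1218 changed in the same direction in experiment 1 and in experiment 2, had groups that did not overlap, and were called in the same direction with the experiment number as a block. These counts use the values that gave the call, so they are no further support for it. Over all rows, 26.2% were higher and 27.1% lower in shKdm5ABC without overlap. The experiment block raised the count of called rows to 3809 (28.1%), 1885 higher (13.9%) and 1924 lower (14.2%). The call is sensitive to single libraries, since it gave 165 rows when shKdm5ABC replicate 1 was left out, and 488 and 213 when shLuc replicate 1 or 2 was left out, and 25 were called from the 4 compared libraries alone without the block.

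**Figure D1:**
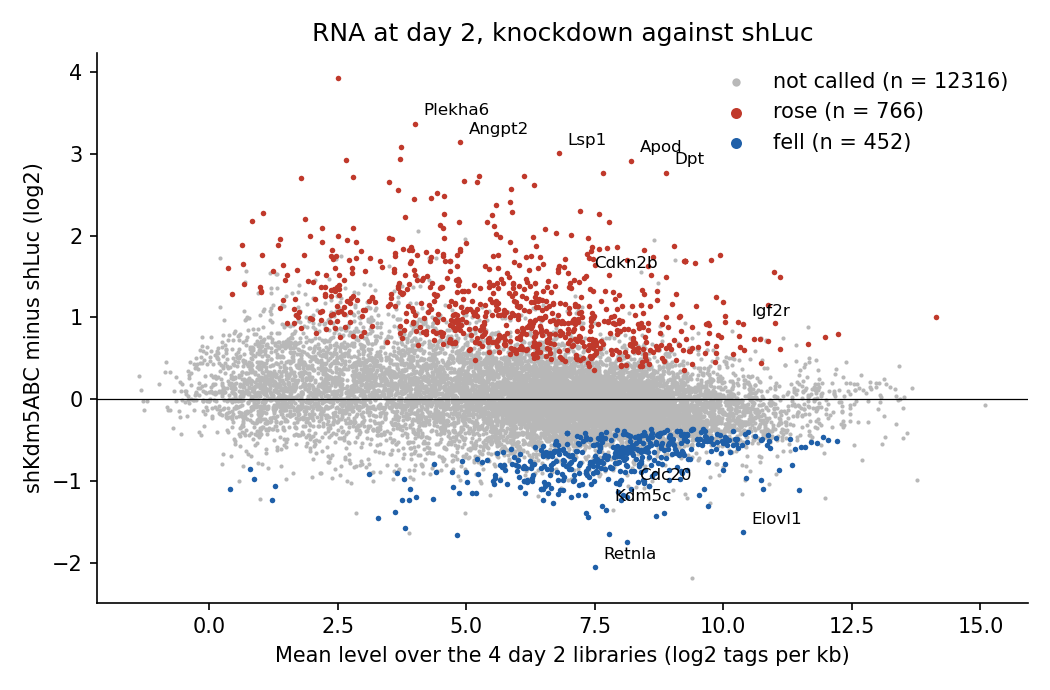
RNA change at day 2 (shKdm5ABC minus shLuc, log2, vertical axis) against the mean level over the 4 day 2 libraries (log2 tags per kb, horizontal axis), 1 point per transcript row. The 766 rows that rose (red) reach changes above 3, while the 452 that fell (blue) reach -2.06 at Retnla, and 12316 rows were not called (grey).

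**Figure D2:**
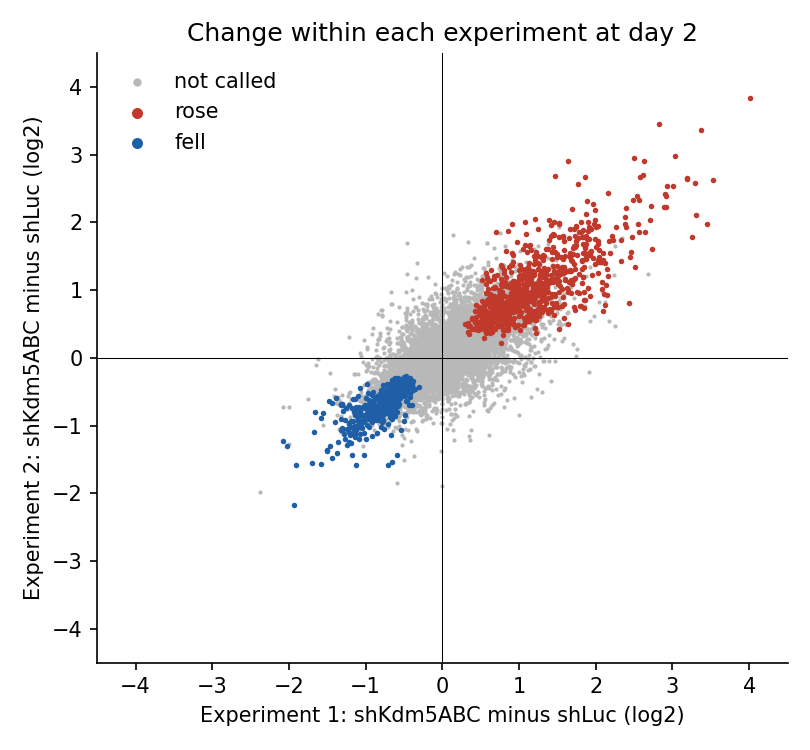
Change within experiment 1 (horizontal axis) and within experiment 2 (vertical axis), each shKdm5ABC minus shLuc of the same number on the log2 scale, 1 point per transcript row. The called rows lie in the upper right quadrant (766 that rose, red) and the lower left quadrant (452 that fell, blue). The call uses the same values, so their place is no further support for it.

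Beside the hairpin targets themselves, genes of mitosis and cytokinesis formed the list with the lowest median at day 2. Of 50 members, 29 fell and 0 rose, against a background of 3.34% of rows that fell, and the list median was -0.88 against -0.0025 over all rows tested. Within experiment 1 the list median was -0.92 and within experiment 2 it was -0.82, and the groups did not overlap for any of the 50 members, where 27.1% of all rows were lower without overlap. Cdc20, the activator of the anaphase-promoting complex, measured 7.62 and 7.70 in shKdm5ABC, against 8.89 and 8.62 in shLuc, a change of -1.09 (SE 0.16, adjusted p 0.0047). Mad2l1, a spindle checkpoint protein that holds CDC20 back, measured 8.08 and 7.83 in shKdm5ABC, against 8.95 and 8.75 in shLuc (change -0.89, SE 0.14, adjusted p 0.00635). Both genes were lower in each knockdown library than in each control library. The chromosomal passenger genes Cdca8 and Incenp, whose products guide Aurora B kinase to the centromere, fell by 1.04 (SE 0.17, adjusted p 0.00742) and 0.71 (SE 0.12, adjusted p 0.00998). Aurka, Ttk, Plk1 and Cdk1, kinases that drive entry into and passage through mitosis, were also among the 29. With the experiment block 48 of the 50 fell. When 1 of the day 2 libraries was left out, 2 to 7 were called, and 0 were called from the 4 libraries alone without the block. These are bulk samples, in which fewer cells in a phase of the cycle and less RNA per cell cannot be told apart.

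Genes of DNA replication and nucleotide synthesis were lower as well. In this list 20 of 50 fell and 0 rose, with a median of -0.60 and all 50 means lower in shKdm5ABC. Rpa1, a subunit of the complex that coats single-stranded DNA, measured 8.16 and 8.24 in shKdm5ABC, against 8.83 and 8.77 in shLuc (change -0.60, SE 0.11, adjusted p 0.0124). Tyms, which makes thymidylate, measured 6.46 and 6.41 in shKdm5ABC, against 7.52 and 7.25 in shLuc (change -0.95, SE 0.18, adjusted p 0.013). For both genes the separation between groups was wider than the gap between libraries of a group. Gins1, part of the replicative helicase, fell by 1.04 (SE 0.20, adjusted p 0.0127), and Dbf4, which activates the kinase CDC7 at origins, fell by 0.82 (SE 0.16, adjusted p 0.0157). The origin licensing genes Gmnn and Cdt1, the helicase subunit genes Mcm5, Mcm6 and Mcm7 and both ribonucleotide reductase genes, Rrm1 and Rrm2, were among the 20. With the block 39 fell, 0 to 5 were called when 1 library was left out, and 0 from the 4 libraries alone without the block.

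DNA repair and checkpoint genes had 7 of 35 that fell and 0 that rose (21 fell with the block), with a median of -0.55. Topbp1, an activator of the checkpoint kinase ATR, measured 8.14 and 8.05 in shKdm5ABC, against 8.77 and 8.66 in shLuc. The groups were apart, with a change of -0.62 (SE 0.11, adjusted p 0.0102). Timeless, a replication fork protein, fell by 0.80 (SE 0.18, adjusted p 0.0273).

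Among G1/S cyclins, kinases and E2F and retinoblastoma factors, 8 of 25 fell and 1 rose, with a median of -0.51 (16 fell and 2 rose with the block). The E2F partner gene Tfdp1 measured 8.84 and 8.69 in shKdm5ABC, against 9.47 and 9.32 in shLuc (change -0.63, SE 0.12, adjusted p 0.0137). Mybl2 and Lin9, whose products join the complexes that switch on mitotic genes, fell by 1.01 (SE 0.22, adjusted p 0.0218) and 0.74 (SE 0.16, adjusted p 0.0232), and Cdc25a, a phosphatase that activates CDK2, fell by 0.64 (SE 0.14, adjusted p 0.0241). The 8 also included the cyclin genes Ccne1 and Ccne2 and the factors E2f2 and E2f3. The gene that rose was Rbl2, which encodes a retinoblastoma relative active in resting cells, at 0.49. Cdkn2b, an inhibitor of CDK4 and CDK6, measured 8.56 and 7.61 in shKdm5ABC, against 6.78 and 6.37 in shLuc, and was 2.84-fold higher (change 1.5, SE 0.29, adjusted p 0.0131). Cdkn1b, which inhibits CDK2, measured 8.69 and 8.36 in shKdm5ABC, against 7.93 and 7.78 in shLuc (change 0.67, SE 0.15, adjusted p 0.0224). Together with the death receptor gene Fas (change 0.66, SE 0.17, adjusted p 0.045) these were the 3 of 20 CDK inhibitors and p53 targets that rose, and 0 fell. With the block 7 rose. H2ax, a histone variant gene that marks DNA breaks when phosphorylated, fell by 0.61 (SE 0.10, adjusted p 0.00714) and was the only called gene of 16 histone genes (2 fell with the block).

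**Figure D3:**
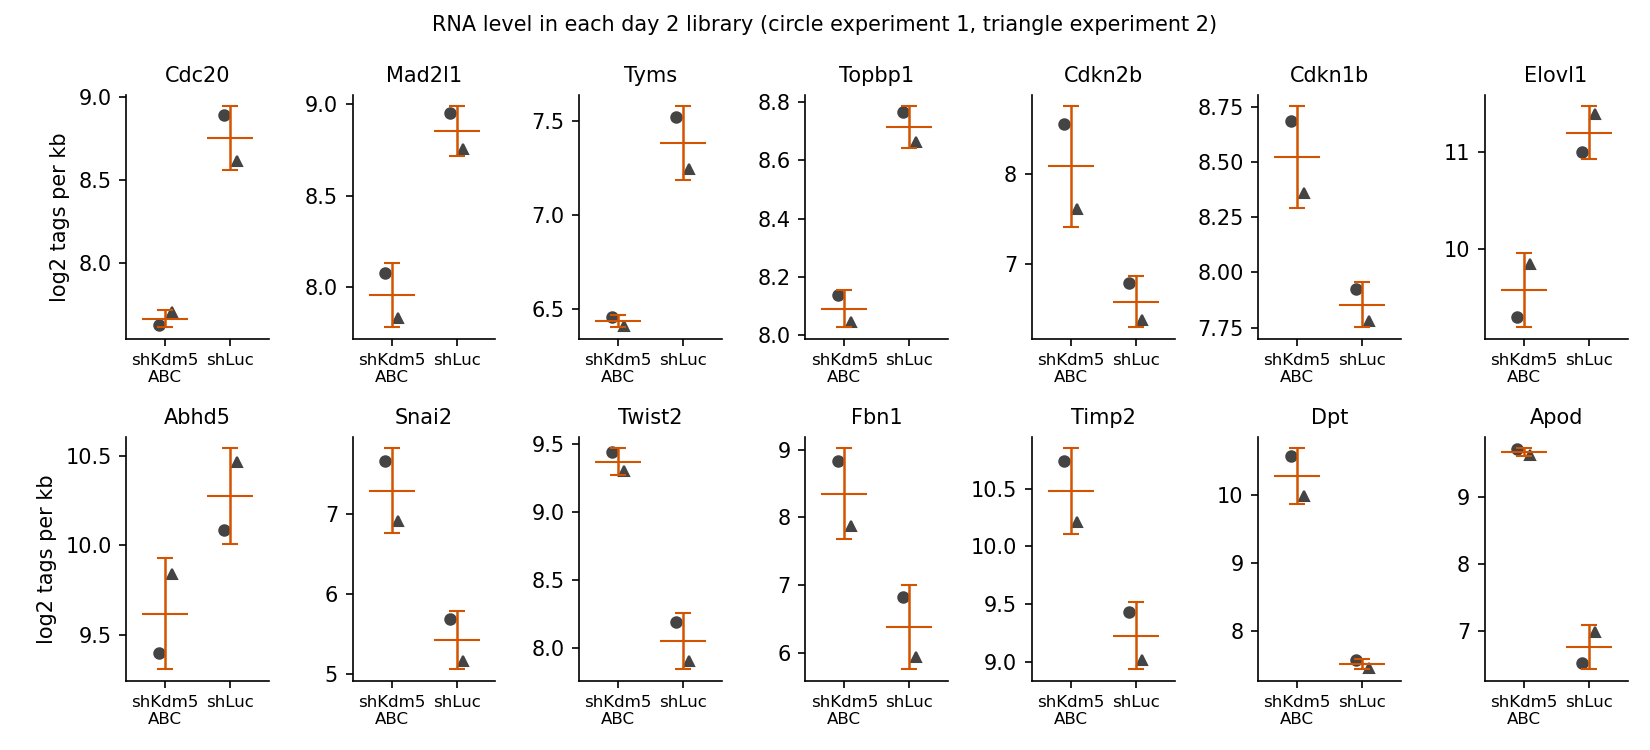
RNA level (log2 tags per kb, vertical axes with separate ranges that do not start at 0) of 14 named genes in the shKdm5ABC libraries (left in each panel) and the shLuc libraries (right), with circles for experiment 1, triangles for experiment 2, and orange bars for the mean and the SD of the 2 libraries. Cdc20, Mad2l1, Tyms, Topbp1, Elovl1 and Abhd5 are lower in shKdm5ABC and the other 8 are higher, with no overlap of groups.

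KDM5A was mapped by ChIP in 3T3-L1 cells at day 2, for which the labels state no transduction. A peak was assigned to a gene where it lay within 1000 bp of the start site, and its value is the deposited normalized tag count of the strongest such peak. Such a peak was found for 41 of 50 mitosis genes (82.0%) and 43 of 50 replication genes (86.0%), against 73.5% of all genes tested, and Cdca8 and H2ax had none. The median RNA levels of these lists were 7.38 and 7.63. Among genes not called at a level of 6 to 8, 82.1% had a peak, so the lists were close to genes of like level. KDM5A tags at day 2 were 263 and 163 at Cdc20, 340 and 192 at Mad2l1, 413 and 281 at Tyms and 404 and 299 at Rpa1, against 10.8, 17.1, 12.6 and 13.5 in the input library. At Birc5, the survivin gene of the chromosomal passenger complex, they were 497 and 369, and at Bub1b, a spindle checkpoint kinase gene, 120 and 101. In RNA these 2 genes fell by 0.92 (SE 0.19, adjusted p 0.0168) and 1.01 (SE 0.18, adjusted p 0.0114). The 2 genes with the highest rise that have a KDM5A peak and a promoter entry had 2.27 and 10.8 tags (Plekha6) and 31.8 and 34.0 tags (Col23a1). Both genes had a mean RNA level below 4, where genes not called had a median of 27.9 tags. Single genes varied in both directions, since Runx2, which rose, had 604 and 377 tags, and Tgm2, which fell, had 0 and 12.4. The 200 bases before the RefSeq start site (GRCm38.p6, written on the strand of the gene) follow for these 8 genes, because they are the mitosis and replication genes with the smallest p, and the genes with the highest rise, among those with both a KDM5A peak and a promoter entry. Capitals mark matches, on either strand, to the E2F core (TTCCCGC or TTGGCGC), the CHR element (TTTGAA or TTCGAA), the CCAAT box (CCAAT), the CRE core (TGACG) and the E-box (CACGTG), and no searched motif contains another.
Cdc20 chr4:118437344-118437543 (minus strand): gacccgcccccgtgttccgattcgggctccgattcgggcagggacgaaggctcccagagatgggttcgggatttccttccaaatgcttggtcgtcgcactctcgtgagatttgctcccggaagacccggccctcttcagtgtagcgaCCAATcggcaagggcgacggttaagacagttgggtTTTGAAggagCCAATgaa
Mad2l1 chr6:66535021-66535220 (plus strand): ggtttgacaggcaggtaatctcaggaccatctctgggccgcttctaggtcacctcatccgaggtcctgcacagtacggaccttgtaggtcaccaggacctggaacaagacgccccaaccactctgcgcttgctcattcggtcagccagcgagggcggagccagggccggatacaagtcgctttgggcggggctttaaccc
Bub1b chr2:118598011-118598210 (plus strand): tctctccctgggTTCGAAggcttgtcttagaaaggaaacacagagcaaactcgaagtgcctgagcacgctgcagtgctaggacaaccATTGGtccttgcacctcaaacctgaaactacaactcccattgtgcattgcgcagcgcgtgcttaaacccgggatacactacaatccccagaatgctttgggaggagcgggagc
Birc5 chr11:117849037-117849236 (plus strand): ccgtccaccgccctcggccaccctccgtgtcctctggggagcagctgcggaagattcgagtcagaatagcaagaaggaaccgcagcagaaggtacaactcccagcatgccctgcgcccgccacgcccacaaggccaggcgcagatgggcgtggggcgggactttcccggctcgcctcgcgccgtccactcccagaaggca
Rpa1 chr11:75348384-75348583 (minus strand): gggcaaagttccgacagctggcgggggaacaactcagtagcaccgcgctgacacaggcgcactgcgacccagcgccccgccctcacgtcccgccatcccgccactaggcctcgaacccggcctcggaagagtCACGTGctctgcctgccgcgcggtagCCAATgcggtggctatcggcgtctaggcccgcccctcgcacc
Tyms chr5:30073626-30073825 (minus strand): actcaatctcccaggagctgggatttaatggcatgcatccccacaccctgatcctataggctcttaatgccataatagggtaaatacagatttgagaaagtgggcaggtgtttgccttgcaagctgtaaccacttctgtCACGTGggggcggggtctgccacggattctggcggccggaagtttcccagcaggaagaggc
Plekha6 chr1:133245897-133246096 (plus strand): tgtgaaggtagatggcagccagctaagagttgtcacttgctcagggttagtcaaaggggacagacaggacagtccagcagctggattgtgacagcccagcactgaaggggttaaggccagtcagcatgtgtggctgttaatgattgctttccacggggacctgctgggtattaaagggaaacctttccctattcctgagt
Col23a1 chr11:51289720-51289919 (plus strand): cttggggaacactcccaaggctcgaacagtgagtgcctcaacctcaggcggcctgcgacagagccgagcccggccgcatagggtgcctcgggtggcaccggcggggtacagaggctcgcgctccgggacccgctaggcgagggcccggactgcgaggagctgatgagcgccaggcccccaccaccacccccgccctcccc
In these windows Cdc20 has a CHR match and 2 CCAAT matches close to the start site, Bub1b has a CHR match and a CCAAT match, Rpa1 has a CCAAT match and an E-box, and Tyms has an E-box. Mad2l1, Birc5, Plekha6 and Col23a1 have no match to the letters searched. Of 27025 promoters searched over the same 200 bases, 30.0% hold the CCAAT box, 13.6% the CHR element, 15.8% the CRE core, 5.28% the E-box and 4.91% the E2F core. Motif shares were not compared between genes that rose and fell, because a promoter entry exists for only 73.8% of the genes that rose and 79.2% of those that fell.

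Across all genes tested, promoters of genes that rose in the knockdown carried fewer KDM5A tags than the others. Of 766 genes that rose, 570 had a promoter peak (74.4%), with a median of 108 tags at day 2. Of 452 that fell, 369 had a peak (81.6%), with a median of 275, and of 12314 not called (1 row per gene), 9002 had a peak (73.1%), with a median of 218. The genes that fell were thus closer to uncalled genes than those that rose were. The same order held in each of the 6 KDM5A libraries, with medians of 63.3 to 138 for genes that rose, 127 to 316 for genes that fell and 108 to 251 for genes not called. The genes that rose were expressed at a lower level, and KDM5A tags were higher at highly expressed genes, so the medians were also taken by RNA level. At a level of 6 to 8 they were 153 for genes that rose, 269 for genes that fell and 249 for genes not called, and at 8 and above they were 164, 302 and 288. Below a level of 4 genes that rose and genes not called were close, at 29.8 and 27.9 tags. KDM5C peaks were assigned to 12.8% of genes that rose and 15.9% of those that fell, with medians of 19.6 and 21.3 tags. Genes not called lay between them, at 14.9% with a median of 20.3 tags. Genes are not replicates of a condition, so these are descriptions with no test.

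**Figure D4:**
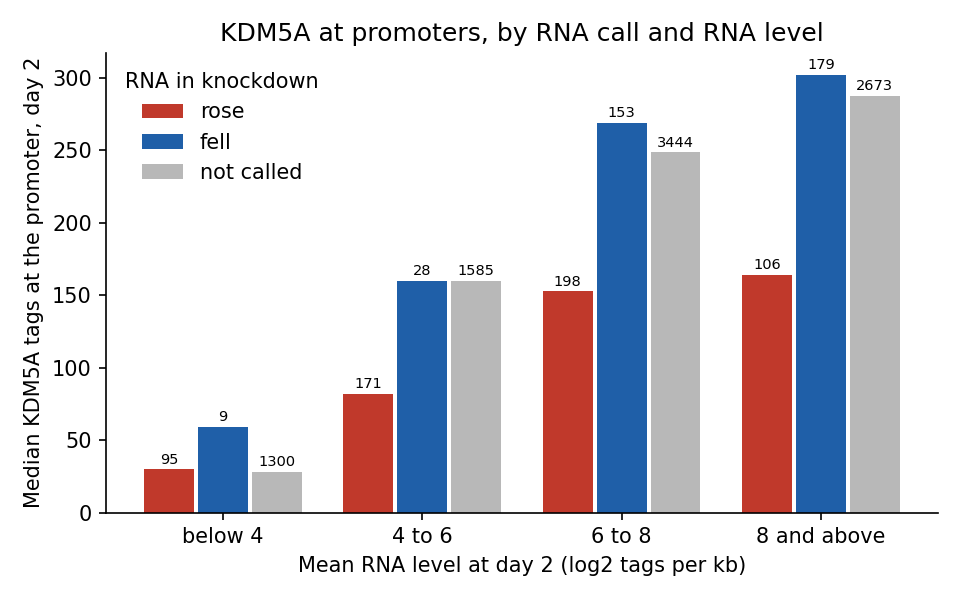
Median KDM5A tags of the strongest peak within 1000 bp of the start site at day 2 (vertical axis, mean of 2 libraries), by RNA level at day 2 (horizontal axis, log2 tags per kb) and by RNA call in shKdm5ABC against shLuc. Numbers above the bars count genes with a peak; at levels of 4 and above the bars of genes that rose (red) are the lowest, with 153 against 269 and 249 tags at a level of 6 to 8.

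Ribosome biogenesis genes were lower by smaller amounts, and cytosolic ribosomal protein genes were not. For ribosome biogenesis, 7 of 32 genes fell and 0 rose (19 fell with the block), with a median of -0.35. Rrn3, which recruits RNA polymerase I to ribosomal DNA, measured 7.74 and 8.21 in shKdm5ABC, against 9.24 and 9.57 in shLuc, and was at 0.371 times the shLuc level (change -1.43, SE 0.21, adjusted p 0.0047). The nucleolar genes Npm1, Nop58 and Nop14 changed by -0.52 to -0.47 (adjusted p 0.0326 to 0.0445). Cytosolic ribosomal proteins had 0 of 34 called in either direction, also 0 with the block, and a median of 0.04. Their most abundant members, Rplp1 at 13.82 and 13.65 in shKdm5ABC and 13.74 and 13.45 in shLuc, and Rpl8 at 13.51 and 13.35 in shKdm5ABC and 13.54 and 13.32 in shLuc, had overlapping groups.

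Mitochondrial lists shared a low median with few calls. Of 33 mitochondrial ribosomal protein genes, 5 fell and 0 rose, with a median of -0.37 and all 33 means lower in shKdm5ABC (21 fell with the block). Mrps7 measured 9.11 and 9.36 in shKdm5ABC, against 9.80 and 9.76 in shLuc (change -0.55, SE 0.13, adjusted p 0.0313). Mrpl50, Mrps16 and Mrps35 changed by -0.54 to -0.42. Among oxidative phosphorylation subunits, 4 of 36 fell and 0 rose (19 and 1 with the block), with a median of -0.29. Cycs, which encodes cytochrome c, measured 8.0 and 8.37 in shKdm5ABC, against 8.77 and 8.84 in shLuc (change -0.62, SE 0.16, adjusted p 0.0381), and the complex I genes Ndufb3 and Ndufab1 fell by 0.71 and 0.49. In the list of the TCA cycle and fatty acid oxidation, 1 of 36 fell and 1 rose (18 and 2 with the block). Idh3a, a subunit of isocitrate dehydrogenase, fell by 0.87 (SE 0.20, adjusted p 0.0262). Ppargc1a, a coactivator that raises mitochondrial gene expression, measured 5.24 and 5.85 in shKdm5ABC, against 3.79 and 4.5 in shLuc, and rose by 1.40 (SE 0.35, adjusted p 0.0365).

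Adipocyte genes were mostly uncalled at day 2. Of 30 measured genes for lipid storage, lipolysis and secreted proteins, 1 fell and 0 rose, with a median of -0.41, while with the block 9 fell and 1 rose. Abhd5, a coactivator of the lipase ATGL, measured 9.40 and 9.84 in shKdm5ABC, against 10.09 and 10.46 in shLuc (change -0.66, SE 0.17, adjusted p 0.045). The common markers Fabp4, Adipoq, Pparg and Cebpa lay outside the naming rule and were looked up for their role. Fabp4 measured 12.82 and 13.71 in shKdm5ABC, against 14.17 and 14.34 in shLuc, and did not pass the test (change -0.99, SE 0.43, adjusted p 0.183, or 0.0131 with the block). Adipoq measured 9.44 and 10.52 in shKdm5ABC and 9.27 and 10.40 in shLuc (change 0.15, SE 0.76, adjusted p 0.938). For Adipoq the experiments differed by more than the groups. Pparg and Cebpa had changes of -0.71 (SE 0.32, adjusted p 0.198, or 0.00793 with the block) and -0.72 (SE 0.22, adjusted p 0.0743, or 0.00673 with the block). The adipogenic transcription factors as a list had 2 of 23 that rose and 0 that fell, where the block gave 3 and 4. The 2 were Ebf1, at 7.72 and 7.88 in shKdm5ABC, against 6.92 and 7.23 in shLuc (change 0.73, SE 0.15, adjusted p 0.0191), and Klf5 (change 0.65, SE 0.15, adjusted p 0.0282).

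Within fatty acid synthesis, elongation and desaturation, 3 of 23 fell and 2 rose, with a median of -0.10. The 3 that fell were all fatty acid elongases. Elovl1 measured 9.30 and 9.85 in shKdm5ABC, against 11.01 and 11.40 in shLuc (change -1.63, SE 0.19, adjusted p 0.0019). Elovl4, which extends very long chains, measured 2.56 and 2.55 in shKdm5ABC, against 3.99 and 4.02 in shLuc (change -1.45, SE 0.21, adjusted p 0.0047). Elovl3, a gene of brown fat, measured 2.79 and 3.27 in shKdm5ABC, against 4.37 and 4.84 in shLuc (change -1.57, SE 0.28, adjusted p 0.01). The groups were far apart for all 3 genes. Fads3, a desaturase relative, rose by 0.93 (SE 0.20, adjusted p 0.0206). With the block 8 of the 23 fell and 3 rose. Cholesterol synthesis and uptake had 2 of 26 that fell and 2 that rose: Lss, the lanosterol synthase gene, at -0.94 (SE 0.19, adjusted p 0.0179) and Insig1, a sterol-dependent brake on the pathway, at -1.23 (SE 0.33, adjusted p 0.045), against the relative Insig2 at 0.47 (SE 0.11, adjusted p 0.0322) and the sterol reductase gene Tm7sf2 at 0.77 (SE 0.18, adjusted p 0.0302). With the block 5 fell and 2 rose.

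Factors known to restrain adipogenesis were higher in the knockdown. Of 24 measured, 6 rose and 0 fell, against 5.66% of all rows that rose, with a median of 0.59 (11 and 1 with the block). Twist2, a basic helix-loop-helix repressor, measured 9.44 and 9.30 in shKdm5ABC, against 8.19 and 7.90 in shLuc (change 1.32, SE 0.14, adjusted p 0.00154). Snai2, a zinc finger repressor of mesenchymal cells, measured 7.67 and 6.91 in shKdm5ABC, against 5.68 and 5.16 in shLuc (change 1.87, SE 0.32, adjusted p 0.00843). Neither gene had overlapping groups. Id2 and Twist1 rose by 1.21 (SE 0.22, adjusted p 0.0112) and 0.93 (SE 0.21, adjusted p 0.0242). ID2 blocks the DNA binding of other helix-loop-helix factors, and it is also described as promoting adipogenesis in some settings.

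Preadipocyte receptors and Wnt pathway genes had 5 of 24 that rose and 0 that fell, with a median of 0.52 (12 and 0 with the block). Pdgfra, a receptor that marks adipocyte progenitors, measured 10.88 and 10.31 in shKdm5ABC, against 9.88 and 8.94 in shLuc (change 1.19, SE 0.26, adjusted p 0.023). Dkk3, a secreted member of the Dickkopf family, measured 5.07 and 4.77 in shKdm5ABC, against 2.70 and 2.69 in shLuc, and was 4.68-fold higher (change 2.23, SE 0.28, adjusted p 0.00237). Ccn5 (WISP2) and Sfrp2, a secreted Wnt modulator, each rose by 1.46 (adjusted p 0.00738 and 0.00851). The summed level of the 30 preadipocyte and Wnt genes in the table was 6446 and 5672 tags per kb in shKdm5ABC, against 5621 and 4162 in shLuc, and that of the 33 adipocyte genes was 37800 and 63160 in shKdm5ABC, against 65740 and 86930 in shLuc. The groups did not overlap in either sum, but the nearest libraries were close, at 5672 against 5621 and at 63160 against 65740. In both sums the libraries of a group differed by more than that. Such sums are weighted to abundant genes, and their part in the results was not tested.

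**Figure D5:**
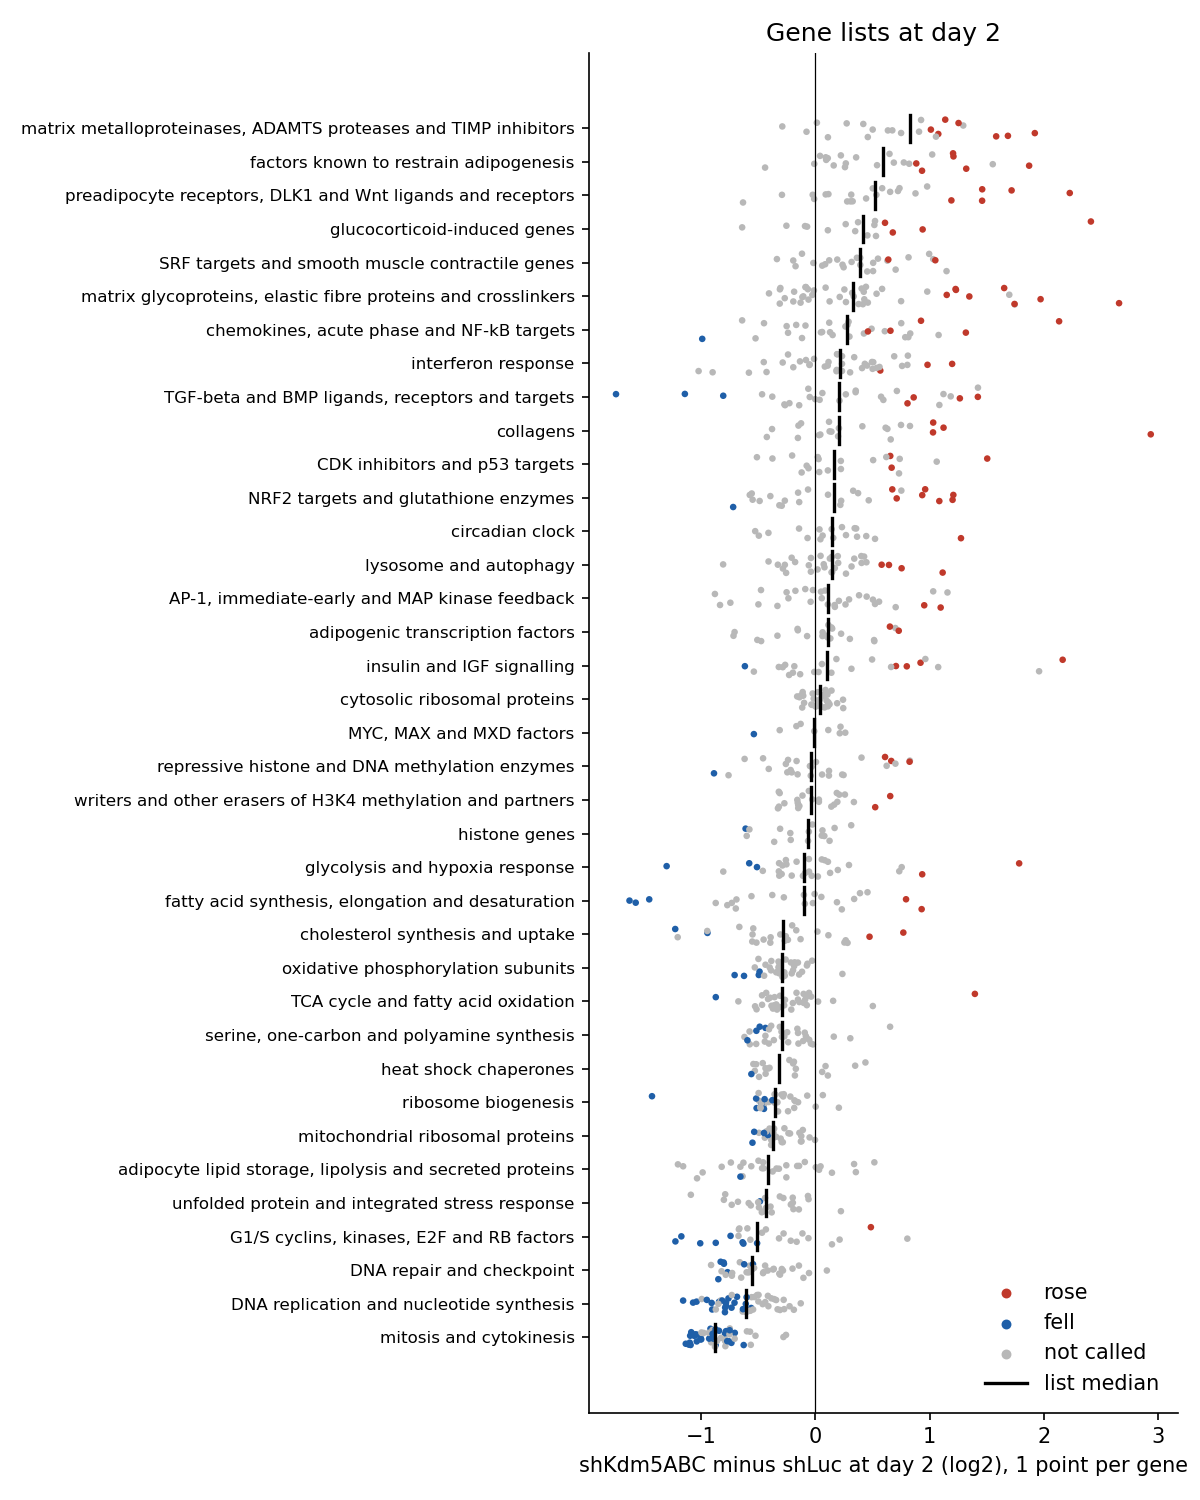
Change at day 2 (shKdm5ABC minus shLuc, log2, horizontal axis) of each measured gene in 37 gene lists (rows, ordered by the list median, black bar), with genes that rose in red, genes that fell in blue and genes not called in grey; vertical scatter within a row has no meaning. Mitosis (median -0.88) and DNA replication (-0.60) lie at the bottom, and matrix proteases (0.83), factors that restrain adipogenesis (0.59) and preadipocyte genes (0.52) at the top.

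Genes of the 3 matrix lists that were called all rose. Among matrix metalloproteinases, ADAMTS proteases and their inhibitors, 7 of 22 rose and 0 fell, with a median of 0.83 (15 rose with the block). Adamts5, which cuts proteoglycans, measured 7.06 and 6.96 in shKdm5ABC, against 5.39 and 5.46 in shLuc (change 1.58, SE 0.19, adjusted p 0.0021). Timp2, a protease inhibitor, measured 10.74 and 10.21 in shKdm5ABC, against 9.43 and 9.02 in shLuc (change 1.25, SE 0.19, adjusted p 0.00526). Proteases and an inhibitor of them were thus both higher. Mmp9 and Mmp3 rose by 1.92 (SE 0.31, adjusted p 0.00683) and 1.08 (SE 0.22, adjusted p 0.0179). Matrix glycoproteins, elastic fibre proteins and crosslinkers had 8 of 44 that rose and 0 that fell, with a median of 0.33 (16 and 2 with the block). Fbn1, the main microfibril protein, measured 8.83 and 7.87 in shKdm5ABC, against 6.82 and 5.94 in shLuc (change 1.97, SE 0.33, adjusted p 0.00748). Lox, which crosslinks collagen and elastin, measured 8.84 and 8.16 in shKdm5ABC, against 7.13 and 7.42 in shLuc (change 1.23, SE 0.20, adjusted p 0.00666). For both genes the lowest knockdown library was above the highest control library. Ogn, a small leucine-rich proteoglycan, and Matn2, a matrilin, rose by 2.66 (SE 0.35, adjusted p 0.00278) and 1.74 (SE 0.27, adjusted p 0.0063).

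Collagens had 4 of 22 that rose and 0 that fell, with a median of 0.20 (10 and 1 with the block). Col23a1, a transmembrane collagen, measured 5.63 and 4.72 in shKdm5ABC, against 2.33 and 2.14 in shLuc, and was 7.66-fold higher (change 2.94, SE 0.25, adjusted p 0.00112). Col12a1, a fibril-associated collagen, Col15a1, a basement membrane zone collagen, and Col8a1, a network-forming collagen, rose by 1.12, 1.03 and 1.03 (adjusted p 0.0161, 0.00674 and 0.0289). The TGF-beta and BMP list was mixed, with 4 of 29 that rose and 3 that fell (11 and 3 with the block). Ltbp1, which binds latent TGF-beta to the matrix, measured 6.88 and 6.37 in shKdm5ABC, against 5.36 and 5.05 in shLuc (change 1.42, SE 0.20, adjusted p 0.00394). Smad2, a transducer of the TGF-beta signal, fell by 0.81 (SE 0.15, adjusted p 0.0112), while the BMP receptor gene Acvr1 rose by 0.81 (SE 0.15, adjusted p 0.0121). Of 27 SRF targets and smooth muscle genes, 2 rose and 0 fell (11 and 1 with the block): Csrp1, a LIM protein, by 1.05 (SE 0.21, adjusted p 0.0154) and the myosin gene Myh9 by 0.64 (SE 0.16, adjusted p 0.0328).

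Inflammatory and hormone-response genes were partly higher. Of 31 chemokines, acute phase genes and NF-kB targets, 5 rose and 1 fell, with a median of 0.28 (8 and 2 with the block). Vcam1, an adhesion receptor, measured 8.53 and 8.19 in shKdm5ABC, against 7.04 and 7.04 in shLuc (change 1.32, SE 0.20, adjusted p 0.00562). Cxcl5, a neutrophil chemokine, measured 6.16 and 4.95 in shKdm5ABC, against 3.69 and 3.16 in shLuc (change 2.13, SE 0.45, adjusted p 0.0189). Both genes had groups without overlap, and the knockdown libraries of Cxcl5 differed by more than those of Vcam1. Il1r1, the interleukin 1 receptor, rose by 0.93 (SE 0.22, adjusted p 0.0298), and Saa3, an acute phase protein, fell by 0.99 (SE 0.24, adjusted p 0.0298). Glucocorticoid-induced genes had 4 of 16 that rose and 0 that fell, with a median of 0.42 (8 rose with the block). Tsc22d3 (GILZ), a mediator of glucocorticoid action, measured 10.61 and 10.40 in shKdm5ABC, against 9.53 and 9.60 in shLuc (change 0.94, SE 0.16, adjusted p 0.0096). Sult1a1, a sulfotransferase, Mt2, a metallothionein, and Sgk1, a kinase, rose by 2.41 (SE 0.43), 0.61 (SE 0.13) and 0.68 (SE 0.18). Early response genes had 2 of 31 that rose and 0 that fell (6 and 4 with the block), near the 5.66% of all rows that rose. The 2 were the AP-1 genes Jund and Jun, at 1.10 (SE 0.18, adjusted p 0.00748) and 0.95 (SE 0.18, adjusted p 0.0147). The clock list had 1 of 18 called, the output factor Hlf at 1.28 (SE 0.30, adjusted p 0.0278), where the block gave 3 that rose and 2 that fell.

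Interferon response genes had 3 of 40 that rose and 0 that fell, with a median of 0.21 (9 and 2 with the block). The count that rose was close to the share over all rows, 5.66%. Stat2, a transducer of interferon signals, measured 6.19 and 6.31 in shKdm5ABC, against 5.60 and 5.76 in shLuc (change 0.57, SE 0.14, adjusted p 0.0346). Trim30a measured 5.25 and 4.85 in shKdm5ABC, against 4.01 and 4.13 in shLuc (change 0.98, SE 0.21, adjusted p 0.0205), and Parp14 rose by 1.2 (SE 0.25, adjusted p 0.0199). At day 0, Stat2 fell by 1.04 (adjusted p 0.0075) and Trim30a by 1.01 (adjusted p 0.049) in shKdm5ABC, while Parp14 had a change of -0.97 that did not pass the test (adjusted p 0.108). The sign of these changes was the opposite at day 2. Over the list, 18 of the 40 genes fell and 0 rose at day 0, with a median of -1.24. Over all 13534 rows, 122 fell and 82 rose at day 0, with a median of 0.0078.

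Metabolic and stress lists gave scattered calls. Among NRF2 targets and glutathione enzymes, 7 of 26 rose and 1 fell (11 and 9 with the block). Hmox1, which breaks down heme, measured 10.19 and 10.14 in shKdm5ABC, against 9.22 and 9.24 in shLuc (change 0.94, SE 0.13, adjusted p 0.0032). Txnrd1, thioredoxin reductase, measured 7.70 and 7.80 in shKdm5ABC, against 8.49 and 8.45 in shLuc (change -0.72, SE 0.11, adjusted p 0.00664). Members of the list thus moved both ways. Gsta4 and Gstm1, glutathione transferases, rose by 1.21 (SE 0.18, adjusted p 0.00521) and 1.2 (SE 0.22, adjusted p 0.0122). Lysosome and autophagy genes had 4 of 33 that rose and 0 that fell (11 and 3 with the block), among them Map1lc3b, an autophagosome protein, at 0.64 (SE 0.11, adjusted p 0.0102) and the cathepsin gene Ctsk at 1.11 (SE 0.25, adjusted p 0.0232). In the unfolded protein and integrated stress response list 1 of 27 fell, Atf5 at -0.48 (SE 0.13, adjusted p 0.0437), with a median of -0.43 and 13 that fell with the block. Heat shock chaperones had 1 of 20 that fell, the mitochondrial chaperonin gene Hspe1 at -0.56 (SE 0.10, adjusted p 0.0123), and 10 with the block, where 1 also rose. Serine, one-carbon and polyamine synthesis had 4 of 33 that fell and 0 that rose (14 and 1 with the block): Srm, Gmps, Shmt2 and Ahcy, at -0.59 to -0.44.

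In the glycolysis and hypoxia list 3 of 30 fell and 2 rose (8 and 3 with the block). Bnip3, a mitophagy receptor, measured 6.65 and 7.32 in shKdm5ABC, against 8.0 and 8.57 in shLuc (change -1.30, SE 0.25, adjusted p 0.0127), and Gapdh fell by 0.51 (SE 0.13, adjusted p 0.0368). Ndrg1 and P4ha2, both known as hypoxia-induced genes, rose by 1.78 (SE 0.38, adjusted p 0.0204) and 0.94 (SE 0.19, adjusted p 0.0179). Insulin and IGF signalling had 4 of 24 that rose and 1 that fell (7 and 1 with the block). Igfbp6, which binds IGF2 in the medium, measured 8.86 and 8.87 in shKdm5ABC, against 7.09 and 6.31 in shLuc (change 2.17, SE 0.24, adjusted p 0.00167). Igf2r, the receptor that clears IGF2, measured 10.78 and 10.90 in shKdm5ABC, against 10.02 and 9.81 in shLuc (change 0.92, SE 0.17, adjusted p 0.011). Neither had overlapping groups, while Akt2, the main AKT kinase of insulin signalling in adipocytes, fell by 0.62 (SE 0.16, adjusted p 0.045). Among enzymes of repressive histone and DNA methylation, 3 of 28 rose and 1 fell (7 and 5 with the block): the H3K9 demethylase gene Kdm3a by 0.66, the deacetylase gene Hdac4 by 0.83 and the H3K9 methyltransferase gene Setdb1 by 0.61, against -0.89 for the H3K9 methyltransferase gene Suv39h2. Of 9 MYC network genes 1 fell, Mlx at -0.54 (SE 0.14, adjusted p 0.0428).

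Among the 20 highest changes at a mean level of at least 3, Plekha6 led. It measured 6.06 and 5.31 in shKdm5ABC, against 2.68 and 1.95 in shLuc, a 10.3-fold difference (change 3.37, SE 0.39, adjusted p 0.00173). Angpt2, a ligand of the endothelial receptor TIE2, measured 6.65 and 6.27 in shKdm5ABC, against 3.82 and 2.81 in shLuc (change 3.14, SE 0.33, adjusted p 0.00145). Apod, a lipocalin that binds small lipids, measured 9.71 and 9.63 in shKdm5ABC, against 6.52 and 6.99 in shLuc (change 2.92, SE 0.27, adjusted p 0.00132). Each of these genes was higher by over 2 on the log2 scale in both experiments. Dpt, dermatopontin of the matrix, measured 10.57 and 9.99 in shKdm5ABC, against 7.57 and 7.45 in shLuc (change 2.77, SE 0.37, adjusted p 0.00303). Adh7, an alcohol dehydrogenase that oxidizes retinol, measured 7.78 and 7.49 in shKdm5ABC, against 5.21 and 4.82 in shLuc (change 2.62, SE 0.23, adjusted p 0.00112). Anpep and Dpep1, peptidases of the cell surface, rose by 2.73 (SE 0.27) and 2.77 (SE 0.29), and Htra3, a serine protease, by 2.73 (SE 0.21). Slc22a18, a transporter of an imprinted cluster, Lsp1, a leukocyte actin-binding protein, Cyp7b1, an oxysterol hydroxylase, and S1pr1, a receptor for sphingosine 1-phosphate, rose by 3.08, 3.01, 2.56 and 2.48. The other genes in the set, beside Col23a1 and Ogn, were Ptprv, Prr33, Rassf2, Gdpd2, Ces1a and Myo7a, at 2.45 to 2.66. Ces1a belongs to a family of near-identical carboxylesterase genes, between which reads could be split.

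The 20 lowest changes were led by Retnla, a resistin-like secreted protein, which measured 6.79 and 6.17 in shKdm5ABC, against 8.73 and 8.34 in shLuc (change -2.06, SE 0.33, adjusted p 0.00666). Tgm2, tissue transglutaminase, measured 3.84 and 4.13 in shKdm5ABC, against 5.87 and 5.44 in shLuc (change -1.67, SE 0.35, adjusted p 0.0191). Pbk, a mitotic kinase, measured 6.71 and 6.57 in shKdm5ABC, against 8.09 and 7.98 in shLuc (change -1.39, SE 0.16, adjusted p 0.00172). All 3 genes were lower in both experiments. Fmr1, an RNA-binding protein that restrains translation, fell by 1.31 (SE 0.17, adjusted p 0.00289), Zmpste24, which processes prelamin A, by 1.39 (SE 0.36, adjusted p 0.0426), and Trf, transferrin, by 1.38 (SE 0.37, adjusted p 0.0455). Wfdc21, Tmem86a, Ptp4a1, Gm13363, Ak4 and Car14 changed by -1.65 to -1.23. Kdm5c itself, Rrn3, Bnip3, Insig1 and the 3 elongases were also in the set.

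Markers of other cell types had few calls. Among markers present in the table, 6 of 13 macrophage markers, 7 of 9 endothelial, 6 of 9 neuronal and 6 of 8 epithelial markers lay below a log2 value of 1 in all 4 libraries, and 0 of the 7, 3, 3 and 2 tested members of these lists were called by limma in either direction (with the block 1 macrophage marker, Cd14, and 1 neuronal marker, Map2, rose). The summed level of the macrophage list was 103 and 72.9 tags per kb in shKdm5ABC, against 83.1 and 52.7 in shLuc, so the groups overlapped but the knockdown was higher within each experiment. The same held for the skeletal muscle list, at 56.8 and 41.5 in shKdm5ABC, against 43.2 and 32.1 in shLuc. The endothelial list, at 22.9 and 30.5 in shKdm5ABC, against 24.7 and 33.3 in shLuc, was lower within each experiment. The neuronal, epithelial, germline, brown and beige, and bone and cartilage sums were higher in shKdm5ABC without overlap, the epithelial sum only narrowly. The neuronal list had 20.4 and 19.6 in shKdm5ABC, against 12.8 and 15.7 in shLuc, and the epithelial list 31.0 and 52.97 in shKdm5ABC, against 24.6 and 30.3 in shLuc. The germline list had 103 and 109 in shKdm5ABC, against 78.9 and 84.0 in shLuc, and the brown and beige list 178 and 202 in shKdm5ABC, against 133 and 141 in shLuc. Of 9 bone and cartilage markers tested, Spp1, a secreted phosphoprotein, and Runx2, the osteoblast regulator, rose, by 0.91 (SE 0.18, adjusted p 0.0157) and 0.88 (SE 0.23, adjusted p 0.0403), and 3 rose with the block. That list summed to 519 and 511 tags per kb in shKdm5ABC, against 367 and 358 in shLuc, and 5 of its 12 members in the table lay below 1 in all 4 libraries. Actn3, a muscle actinin, was the single called member of 5 skeletal muscle markers (change 1.81, SE 0.33, adjusted p 0.0114), and 0 of 5 germline genes were called by limma (1 rose with the block). In the brown and beige list, Ppargc1a rose and Elovl3 fell out of 5 (2 rose and 1 fell with the block). The part of other cell types in the results was not tested.

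The calls at day 2 were seldom calls at the earlier times. Of the 766 rows that rose, 43 were called in the same direction at day 0 and 65 at 4 hours, and of the 452 that fell, 33 and 20, where limma called 204 rows at day 0 (1.51%) and 195 at 4 hours (1.44%). Angpt2 was called at each time, with changes of 2.04 at day 0, 3.46 at 4 hours and 3.14 at day 2. Col23a1 had 1.96, 1.75 and 2.94, Htra3 1.53, 1.59 and 2.73, and Igfbp6 1.30, 1.67 and 2.17, all past the threshold. Other genes called at day 0 and day 2 had the larger change at day 0. Among them were Klf5 (1.22 at day 0 and 0.65 at day 2), Atf5 (-1.38 and -0.48) and Shmt2 (-1.05 and -0.44). Cdc20 had -0.33 at day 0 (adjusted p 0.44) and -0.06 at 4 hours (adjusted p 0.94) before -1.09 at day 2. A call at a single time does not show that the effect differed, so the difference of the knockdown effect was tested. At day 2 against day 0 it was called in 42 rows, all more positive at day 2 (0.310%), and in 0 rows more negative, with 644 (4.76%) and 394 (2.91%) under the block. Against 4 hours it was called in 20 rows, all more positive (0.148%), and 0 more negative, with 716 (5.29%) and 461 (3.41%) under the block. Without the block the count against day 0 was 0 to 144 and that against 4 hours 0 to 151 when 1 library was left out, with the highest counts in the absence of shKdm5ABC day 2 replicate 2. None of the named mitosis or replication genes was among them. For Cdc20 the difference from day 0 was -0.76 (SE 0.23, adjusted p 0.194, or 0.0417 with the block) and for Mad2l1 it was -0.86 (SE 0.20, adjusted p 0.101, or 0.0154 with the block). At day 0 Cidec, a lipid droplet gene, stood at 6.98 in shKdm5ABC replicate 2 and at 3.68 in replicate 1, against 3.22 and 3.53 in shLuc. The count against day 0 was 0 without that library, and also 0 without either shLuc day 0 library, shLuc day 2 replicate 1 or shKdm5ABC day 2 replicate 1.

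The change between day 0 and day 2 was smaller in size in shKdm5ABC than in shLuc for 132 of the 150 named genes that were called at day 2 and larger for 18, a count given with no test. These genes were called on the same day 2 values that enter the count, so it is no further support for the calls. The share over all rows was not taken. The genes that follow were chosen after their values were seen. Cdc20 changed by 2.03 in shKdm5ABC and 2.79 in shLuc, Mad2l1 by 1.59 and 2.44, Tyms by 1.52 and 2.25. For Ogn the change was -3.53 in shKdm5ABC and -5.69 in shLuc, for Lox -3.50 and -4.74, for Timp2 -1.46 and -2.78 and for Snai2 -1.87 and -3.36. Fbn1 changed by 0.05 in shKdm5ABC and -2.44 in shLuc. Retnla changed by 3.10 in shKdm5ABC and 5.57 in shLuc, and Elovl3 by 1.91 and 4.10. In the other direction, Igfbp6 changed by 1.94 in shKdm5ABC and 1.08 in shLuc, Tsc22d3 by 2.29 and 1.68, and Elovl4 by -1.82 and -0.71. These values share the day 2 libraries with the comparison above and are set side by side only as descriptions.

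The H3K4me3 ChIP columns could not be used to follow the mark at these genes, because several columns go against their labels. At the promoter of Cidec the columns labelled shKdm5ABC day 2 held 451 and 258 tags and those labelled shKdm5ABC 4 hours 350 and 389, against 36.4 and 23.2 in the columns labelled shLuc day 2. In RNA, Cidec measured 10.59 and 11.81 in shKdm5ABC and 11.23 and 12.09 in shLuc at day 2, and 3.78 and 4.23 in shKdm5ABC and 4.27 and 3.97 in shLuc at 4 hours. The H3K4me3 column labelled for 4 hours in the knockdown is thus high where RNA is low, and the one labelled for day 2 in shLuc is low where RNA is high. Over the promoters of 22 adipocyte genes the median relative to the column was 0.13 and 0.16 in the columns labelled shKdm5ABC 4 hours and -0.77 and -0.78 in those labelled shLuc day 2. Cidec was chosen after its values were seen. As labelled, 2545 of 10702 promoter peaks were higher in shKdm5ABC at day 2 (23.8%) and 26 lower (0.243%), or 752 (7.03%) and 80 (0.748%) with each library centred on its median, and no result on genes rests on them. In the RNA table the 3 hairpin targets were lower in each column labelled as knockdown than in the shLuc columns of the same time.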

How the data were processed

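RNA was measured as polyA-selected libraries made from 4 ug of total RNA with a kit that does not mark strand, so reads of overlapping or antisense genes cannot be told apart. Per the name of the deposited table, its values are normalized tags per kb on the log2 scale. Bowtie2 (given as version 0.12.8), Subread, DESeq2, STAR and HOMER, with mm9, are named in the submitters' processing notes. The pseudocount and transform are not given in the sources used here. The ChIP values are a signal, normalized tags per merged peak, as deposited by the authors, and distances to the start site come from the same tables. RefSeq IDs were named from a reference gene table (17249 rows), the peak tables (148) or kept (118).

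From these, limma 3.58.1 in R 4.3.3 was fitted over all 12 RNA libraries by group (mean-variance trend, two-sided, Benjamini-Hochberg over all 13534 rows, 6 residual degrees of freedom and a median of 4.07 prior degrees of freedom). The script was tested on simulated data. Each SE belongs to the fitted difference. The experiment number as a block, other sets of libraries, scalings, filters and leaving out each library were alternatives. Groups came from the sample titles. Genes with near-identical copies elsewhere in the genome (among them Rplp1, Rpl8, Npm1, Gapdh, Hspe1, Ndufa4, Cycs and Gstm1) are uncertain, since reads could be split.

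The comparison, the 46 gene lists (1230 symbols, 1165 distinct genes in the table and 1077 tested) and the naming rule were chosen with earlier results of these data known. The rule names the Kdm5 genes, up to 4 called members with the smallest p per list (where none was called, the 2 at the highest level), the 20 highest and 20 lowest changes among called rows at a mean level of at least 3 without overlap, and 8 promoters with a KDM5A peak and a sequence entry (4 mitosis and 2 replication genes with the smallest p, the 2 highest changes). Other genes in the text were chosen after their values were seen. Some genes that the rule names are not reported here. Promoter sequences are RefSeq's, build GRCm38.p6, which is not the build of the ChIP files, so no peak coordinates are given.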

Additional observations from a re-analysis of the deposited data

Results flagged for a closer look

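The knockdown effect itself differed between times in 7 named genes, by limma's test of the difference adjusted over all rows. At day 2 against day 0 the difference was 1.62 for Adamts5, 2.17 for Parp14, 1.99 for Trim30a, 1.61 for Stat2, 1.24 for Hmox1, 2.61 for Apod and 2.27 for Adh7 (adjusted p 0.0253 to 0.0478). At day 2 against 4 hours it was 1.49 for Stat2 (adjusted p 0.0298) and 2.49 for Adh7 (adjusted p 0.0298). All 9 differences were more positive at day 2. For Apod and Adh7 the change was 0.30 and 0.35 at day 0, against 2.92 and 2.62 at day 2, so a rise appeared between these times. Parp14, Trim30a and Stat2, which take part in the interferon response, had changes of -0.97, -1.01 and -1.04 at day 0, against 1.2, 0.98 and 0.57 at day 2, so the sign differed, although the day 0 change of Parp14 did not pass the test (adjusted p 0.108). The counts of such rows fell to 0 when some single libraries were left out, as given with the other results.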

How the results depend on the processing

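The count of rows called at day 2 depended most on how the experiment number and the other libraries entered. Of 1218 called rows (766 higher, 452 lower), the replicate block gave 3809 (1885 and 1924), the compared groups alone 25 (23 and 2), and the compared groups with the block 4443 (2105 and 2338). For mitosis genes that fell the same 3 settings gave 48, 0 and 50, and for replication genes 39, 0 and 44. Leaving out 1 of the 4 libraries gave 165 to 970 called, 139 to 656 higher and 26 to 314 lower, with 2 to 7 mitosis and 0 to 5 replication genes that fell. The cause was not tested beyond the number of libraries. Scaling shifted the median of all rows by 0.0248 (median centring) and 0.0279 (quantile), and these, the trend, 2 filters, a further 1 tag per kb and 1 row per gene moved none of these counts by over 1.5 times. The difference of effects gave 1038 rows against day 0 and 1177 against 4 hours with the block, with 0 to 144 and 0 to 151 when 1 library was left out. As labelled, H3K4me3 calls were 5683 with the block and 832 with centred libraries, and 1076 to 1613 when 1 library was left out. The planned test of recovered ChIP reads was not run. No named gene that was called at day 2 changed sign, and uncalled named genes were not checked for sign. With the block, in all libraries or the compared groups, more rows fell than rose, while without it more rose. Over the named genes and alternatives 1683 comparisons kept their side of the threshold, 575 lost a call and 7 gained one. RNA depth is unknown, so how far it limits weak genes could not be assessed.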

Other observations

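A change outside the naming rule was chosen after its values were seen. G0s2, an inhibitor of the lipase ATGL, measured 8.07 and 8.52 in shKdm5ABC, against 10.45 and 10.50 in shLuc. Its change was -2.18 (SE 0.64) and did not pass the test (adjusted p 0.0618 by limma, or 0.0177 with the experiment number as a block).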
